A study of Gallus gallus with 36 samples.

Results

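The chicken proteasome genes were taken from the deposited count table by name, as every transcript whose gene name began with PSM, a letter from A to G and a number. The rule found 50 of 23352 transcripts, under 35 names. One of the names, PSMC3IP, belongs to a partner protein that acts in recombination and is no proteasome subunit, so 49 transcripts of 34 genes were described. The 34 genes were 7 alpha ring subunits, 4 beta ring subunits, 5 base ATPases, 9 non-ATPase subunits, 3 activators and inhibitors, and 6 assembly chaperones. Where a gene had several transcripts, the one with the most counts stood for it; 20 genes had 1 transcript, 13 had 2 and PSMD2 had 3. PSMB7 and PSMG1 were listed under the older names CPSMB7 and DSCR2 and are given apart.

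The proteasome is the large protease that degrades proteins tagged with ubiquitin. Its barrel-shaped core has outer rings of alpha subunits, which gate the entrance, and inner rings of beta subunits, some of which cut peptide bonds. A regulatory cap recognises the ubiquitin chain, removes it and, with a ring of ATPases, unfolds the substrate and threads it into the core. Among the proteins it destroys are clock proteins, and in the pineal gland it degrades AANAT, the enzyme that sets the rhythm of melatonin. The roles given below are known from yeast and mammals.

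RNA-seq was measured in pineal glands and retinas of young chickens (Gallus gallus) at 6 circadian times. The birds lived for 9 days under a cycle with 12 h of light and an equal dark phase, and in constant darkness on day 10, when sampling began, so night and day are subjective throughout. Each of the 12 groups of tissue and time held 3 libraries; a pineal library pooled 3 glands and a retina library held a single retina. Subjective night means circadian times (CT) 16 and 20, subjective day CT4 and CT8, dusk CT12 and dawn CT0. Levels are CPM, counts scaled to TMM-adjusted library sizes; 3 values for 6 or 18 libraries are the lowest, the median and the highest. Tests were edgeR's quasi-likelihood tests fitted on all transcripts of a tissue, with Benjamini-Hochberg adjustment over all of them and a threshold of 0.05. Separate dissections for the 3 libraries of a group are not stated in the labels. The p-values therefore reflect the spread among these samples alone, which may be technical. Over the 36 pairs of libraries within a group, chi-square per degree of freedom was 4.78 to 31.8, more than counting noise alone gives. Whether preparation or tissue made this spread was not tested.

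Library totals were 6583163 to 9434608 estimated counts in pineal and 4994388 to 8122277 in retina, and the 34 genes took 0.323% to 0.360% and 0.313% to 0.329% of them. Pineal markers (the melatonin pathway enzymes AANAT, ASMT and TPH1, found of 4 listed) summed to 9181 to 33143 CPM in pineal libraries, against 242 to 388 CPM in retina libraries. Photoreceptor markers (3 of 6 listed) summed to 37.7 to 204 CPM in pineal, against 1434 to 3767 CPM in retina. Pineal libraries CT12 replicates 1 and 3 and CT20 replicate 1 held over 10 times less of TTR, a choroid plexus gene, than the median pineal library, and CT0 replicate 2, CT12 replicate 1 and CT20 replicate 1 were high in GAD67, a gene of GABA neurons. The counts below were repeated without each set.

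In pineal the 34 genes as a group were lower in the subjective night than in the subjective day. Their summed level averaged 3415 ± 72.3 CPM at CT0, 3524 ± 8.09 at CT4, 3486 ± 52.5 at CT8, 3401 ± 40.5 at CT12, 3272 ± 44.4 at CT16 and 3262 ± 23.5 at CT20 (SD, n = 3 each). The 6 night libraries lay between 3240 and 3323 CPM, all under the 6 day libraries, which lay between 3428 and 3531 CPM. This separation rests on TMM scaling. As a plain share of total counts, night and day overlapped. The TTR-low night library CT20 replicate 1 stood at 0.345%, above the day libraries CT8 replicates 1 and 3 at 0.340% and 0.342%. In retina the mean stayed between 3235 and 3283 CPM at the 6 times. In these tissue samples, fewer cells of a type and less RNA per cell cannot be told apart.

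Of the 34 genes, edgeR called 13 lower at night in pineal and 0 higher, against 6.66% lower and 8.36% higher of the 16070 transcripts tested. DESeq2 also called 13 lower and 0 higher, with PSMC3 in place of PSMB3. PSMC6 was the gene above 0 among the 19 with an unadjusted edgeR p under 0.05, against 27.0% of transcripts. The night-minus-day difference was below 0 for 28 of 34 genes, against 49.8% of all transcripts, and its median was -0.12 on the log2 scale; with transcripts summed by gene, 31 were below 0. Leukocyte markers moved the same way: all 6 found were below 0, CXCR4 alone passed the test, and their summed level was 221 to 331 CPM at night, against 306 to 497 CPM by day. Choroid plexus markers were below 0 for 4 of 4, with none passing, and summed to 1551 to 27784 CPM at night, against 25031 to 44340 CPM by day. Photoreceptor markers were below 0 for 3 of 3, with PDE6B passing, and summed to 37.7 to 81.8 CPM at night, against 68.1 to 111 CPM by day. Red blood cell markers were below 0 for 2 of 2, with none passing, and summed to 231 to 664 CPM at night, against 253 to 1019 CPM by day. Markers of inner retinal neurons went the other way, at 305 to 370 CPM at night, against 247 to 301 CPM by day, with 1 of 6 passing. Pineal markers summed to 24669 to 31005 CPM at night, against 11393 to 27655 CPM by day. Of these, AANAT and TPH1 passed as higher at night and ASMT as lower. Markers of Muller glia, endothelium and striated muscle overlapped between night and day, with none passing, and 1 of 3, 2 of 3 and 1 of 3 were below 0. The part of any of these in the proteasome result was not tested. Without the 3 libraries low in TTR, 8 genes passed, all lower at night; scaled by total counts, 4 passed (PSMA6, PSMA7, PSMB1 and PSMD1). The count was 4 without CT4 replicate 1, 7 without CT8 replicate 2 or CT16 replicate 1, and 8 without CT16 replicate 2 or CT20 replicate 3. PSMA6, PSMB1 and PSMD1 passed without any single library, the other 10 genes each lost the call without 2 to 8 of the 18, and 28 of 34 genes were below 0 under total-count scaling and without either set of 3 libraries.

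A 24 h curve passed the test in pineal for 10 of 34 genes, against 21.1% of all transcripts; 19 had an unadjusted p under 0.05, against 32.2%. Of the 10, 9 also passed as lower at night (PSMA3, PSMA4, PSMA6, PSMA7, PSMB1, PSMC5, PSMD1, PSMD13 and PSMD14), and both tests rest on the same libraries. PSMG3 passed for the curve only, PSMA2, PSMB2, PSMB3 and PSMD6 for night against day only, and 20 genes for neither. The 10 fitted curves peaked between CT3.84 and CT8.76, in the subjective day, with amplitudes from mean to peak of 0.07 to 0.12 log2 units and peak levels 1.11 to 1.19 times the trough. Without the TTR-low libraries, without the GAD67-high libraries, without CT20 replicate 2 or scaled by total counts, 6 genes passed. PSMA3, PSMA6, PSMB1 and PSMD1 passed without any single library, the other 6 each lost the call without 1 to 14 of the 18, and PSMA3 lost its call under total-count scaling.

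**Figure D1:**
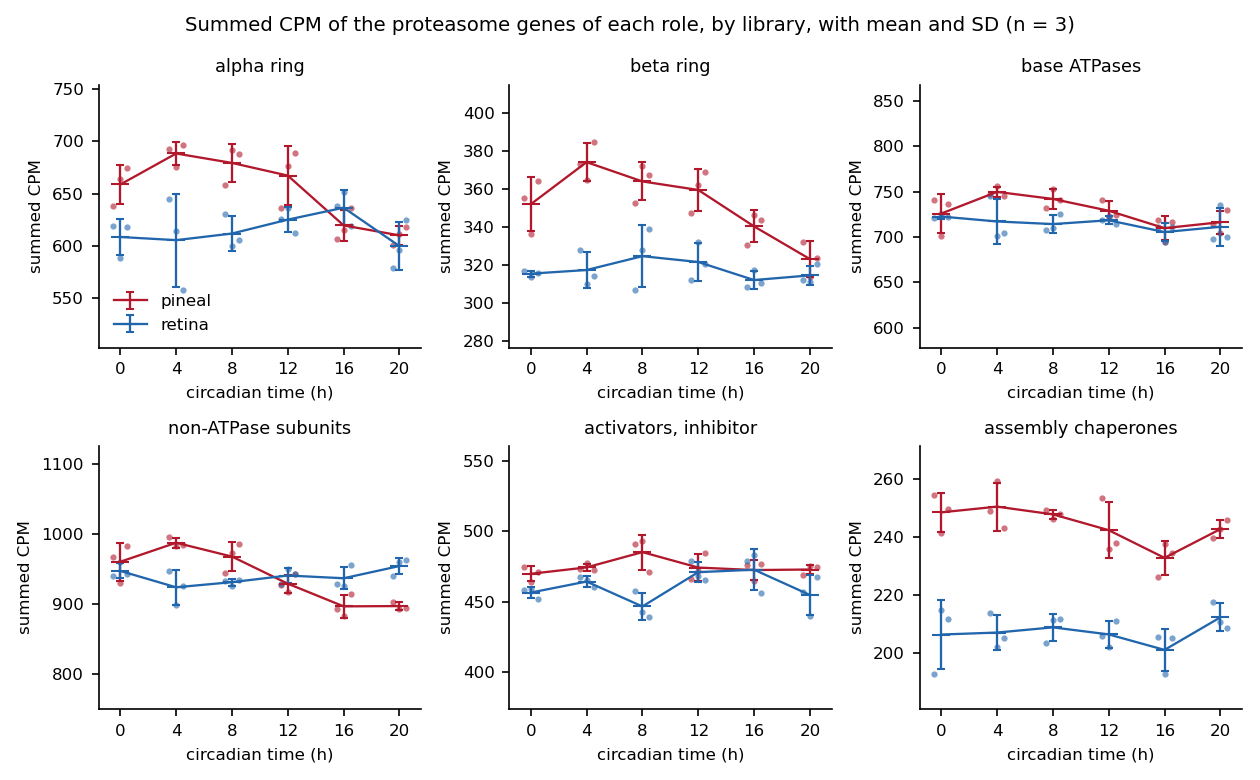
Summed CPM of the genes of each role against circadian time in hours, pineal in red and retina in blue; points are libraries, lines join means and bars are SD (n = 3), and the y axes do not start at 0. In pineal the alpha ring lay at 601 to 636 CPM in the night libraries, against 658 to 697 CPM in the day libraries, while activators and inhibitor overlapped.

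The summed levels of the core and cap roles did not overlap between night and day, and those of the accessory roles did. With all transcripts of each gene added, the alpha ring summed to between 601 and 636 CPM in the 6 pineal night libraries, against between 658 and 697 CPM in the 6 day libraries. The beta ring lay at 314 to 347 CPM at night, against 353 to 385 CPM by day. The base ATPases lay at 694 to 730 CPM at night, against 732 to 755.9 CPM by day, and the non-ATPase subunits at 883 to 915 CPM at night, against 945 to 995 CPM by day. None of these 4 sums overlapped between night and day, although the base ATPase gap was narrow, from 729.6 to 731.9 CPM. These sums rest on TMM scaling, and the roles differ in their number of genes. How often sums of other genes separate in this way was not computed. The activators and inhibitor overlapped, at 465 to 477 CPM at night and 471 to 493 CPM by day, and so did the assembly chaperones, at 226 to 246 CPM at night and 243 to 259 CPM by day, although 5 of their 6 night libraries lay below every day library. A difference between the roles themselves was not tested.

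Of single genes, the separation was complete for a few. For 5 of 34 genes (PSMA6, PSMA7, PSMB1, PSMD1 and PSMD14) all 6 pineal night libraries lay below all 6 day libraries, against 3.10% of all transcripts, and for 0 they lay above, against 3.68%. With transcripts summed by gene, 6 lay below in this way (PSMA1, PSMA6, PSMA7, PSMB1, PSMD1 and PSMD13), against 4.08% of genes. For the leading transcripts, 0 of 34 lying above is not far from the share of 3.68%.

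**Figure D2:**
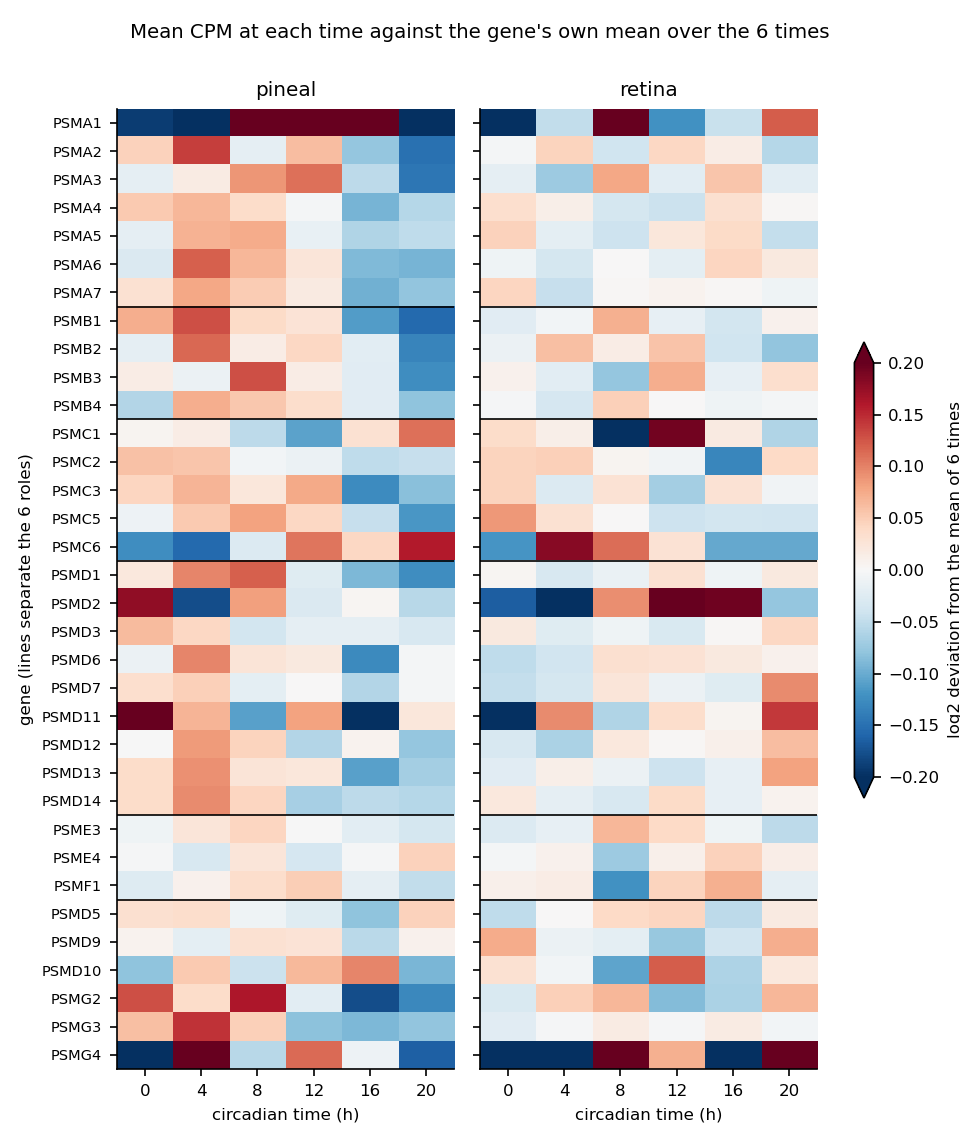
Colour gives the log2 deviation of each gene's mean CPM at a time (n = 3) from its own mean over the 6 times. Pineal is on the left and retina on the right, with genes ordered by role. Colours saturate at 0.2, which the split genes PSMA1 and PSMD2 exceed, as do PSMD11 and PSMG4, which are low in CPM. Most alpha, beta and non-ATPase genes are above their mean at CT4 and below it at CT16 and CT20 in pineal, and no such block is seen in retina.

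In the alpha ring, 5 of 7 genes were lower at night in pineal, against 6.66% of all transcripts. A curve was followed by 4 of 7, against 21.1% of all transcripts. PSMA6 (ENSGALT00000016353, chromosome 5, 38541657 to 38551291 as the deposited tables give it) had 67.5, 69.7 and 74.8 CPM at CT16 and 67.7, 70.2 and 73.6 CPM at CT20. By day it had 80.2, 79.7 and 85.3 CPM at CT4 and 78.2, 78.1 and 79.8 CPM at CT8. The 6 night libraries were all below the 6 day libraries, and the difference was -0.18 ± 0.04 log2 (SE, adjusted p = 0.00321). Its curve peaked at CT6.44 with an amplitude of 0.10 ± 0.017 (adjusted p = 0.00326). PSMA3 (ENSGALT00000019655, chromosome 5, 57844569 to 57853136), a neighbour in the ring, had 110.0, 117.8 and 124.6 CPM as the lowest, median and highest of its night libraries, against 121.7, 130.5 and 139.6 CPM by day. Those ranges overlapped; the difference was -0.14 ± 0.04 log2 (adjusted p = 0.0191). PSMA3 had its highest mean at dusk, with 133.7, 132.7 and 142.2 CPM at CT12, and its fitted peak, CT8.76, was the latest of the 10.

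PSMA7 had 84.5, 94.9 and 96.5 CPM at night, against 96.9, 103.5 and 108.0 CPM by day (lowest, median and highest), a narrow gap with no overlap. Its difference was -0.14 ± 0.04 log2 (adjusted p = 0.0305). PSMA2 and PSMA4 differed by -0.17 ± 0.05 and -0.12 ± 0.03 log2 (adjusted p = 0.0327 and 0.0293) with overlapping ranges. PSMA5 missed the threshold at -0.12 ± 0.06 log2 (adjusted p = 0.235). Among these, PSMA2, PSMA4 and PSMA7 lost the night call without either set of 3 libraries.

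PSMA1 needed both of its transcripts. Its more counted transcript (ENSGALT00000009695, 68.0% of the gene's counts) ranged over the pineal libraries as widely as 0.836, 47.1 and 78.9 CPM within CT20. The other (ENSGALT00000039620) held the remainder. It occupies nearly the same interval of chromosome 5, 11382978 to 11390480, against 11382983 to 11390483 for the more counted one. Summed, the gene averaged 106 ± 3.28 CPM at CT0, 113 ± 3.17 at CT4, 114 ± 3.03 at CT8, 108 ± 3.18 at CT12, 99.9 ± 2.08 at CT16 and 99.4 ± 2.02 at CT20 in pineal (SD, n = 3). The sum was 97.3 to 102.0 CPM in night libraries, against 109.5 to 116.8 CPM in day libraries, with no overlap; in retina the sum itself spread from 59.8 to 118.5 CPM over night and day. For the sum the night-minus-day difference was -0.18 log2 (adjusted p = 0.000279), against 0.02 ± 0.61 log2 (adjusted p = 0.991) for the single transcript.

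**Figure D3:**
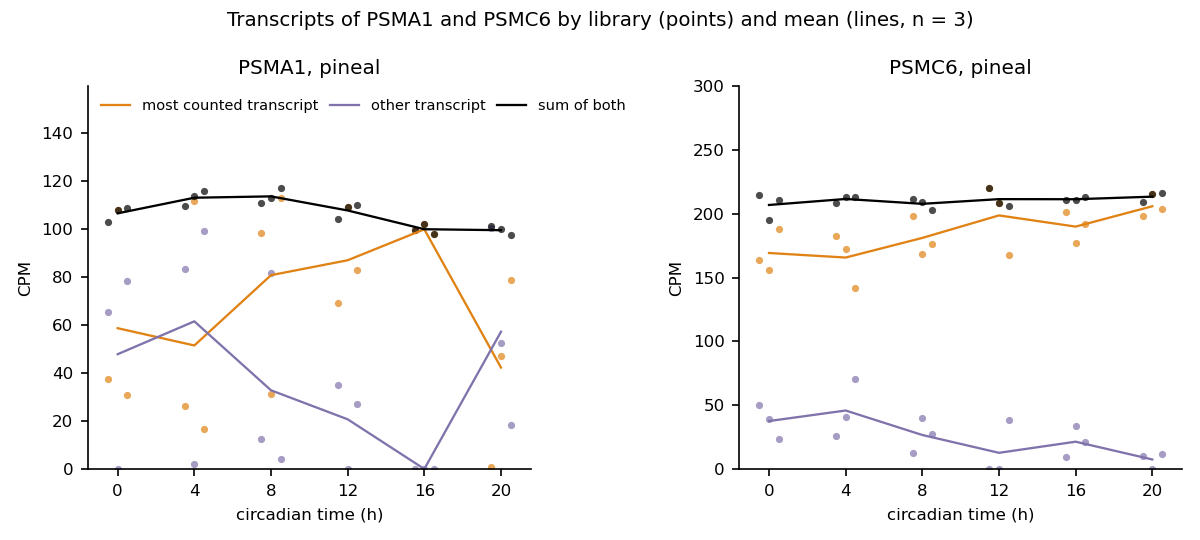
CPM of the 2 transcripts of PSMA1 (left) and PSMC6 (right) and of their sum against circadian time in pineal; points are libraries and lines join means (n = 3). The PSMA1 transcripts trade counts between libraries of 1 time while their sum stays within 97.3 to 116.8 CPM over the night and day libraries, and the PSMC6 sum is nearly level.

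In the beta ring 3 of 4 genes were lower at night, against 6.66% of all transcripts. PSMB1 alone followed a curve (25%), which is near the 21.1% of all transcripts. The 4 genes are structural members with no catalytic site. PSMB1 (ENSGALT00000018217, chromosome 3, 42604002 to 42609973) had 97.6, 93.7 and 92.2 CPM at CT16 and 90.5, 89.7 and 94.6 CPM at CT20. By day it had 112.3, 110.5 and 111.9 CPM at CT4 and 102.7, 106.6 and 105.1 CPM at CT8. No night library reached the lowest day library, and the difference was -0.21 ± 0.04 log2 (adjusted p = 0.00102). Its curve peaked at CT5.35 with an amplitude of 0.12 ± 0.024 (adjusted p = 0.00432), a peak 1.19 times the trough. PSMB3 had 44.0, 46.7 and 48.9 CPM at night, against 47.7, 51.7 and 54.1 CPM by day (lowest, median and highest), with overlap. It differed by -0.13 ± 0.04 log2 (adjusted p = 0.0316). The PSMB3 call was lost in 5 of 13 alternative settings, among them DESeq2, total-count scaling and the fit without the TTR-low libraries. It was also lost in 8 of 18 fits without a single library. PSMB2 differed by -0.13 ± 0.04 log2 (adjusted p = 0.0301). PSMB4 had -0.11 ± 0.05 log2 (adjusted p = 0.165). CPSMB7, the name here for the catalytic PSMB7, had -0.10 log2 (adjusted p = 0.112).

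Of the base ATPases, which unfold substrates, PSMC5 alone passed edgeR's tests, as lower at night and for a curve. In each test that was 20% of the role, against 6.66% and 21.1% of all transcripts. PSMC5 (ENSGALT00000000469, chromosome 27, 1607679 to 1611164) had 117.5, 122.2 and 128.5 CPM at night, against 127.1, 134.9 and 142.9 CPM by day. Of the 6 night libraries, 5 lay below every day library. The difference was -0.14 ± 0.04 log2 (adjusted p = 0.0235), and the curve peaked at CT7.66 (adjusted p = 0.0183). Both calls ended without the TTR-low libraries and under total-count scaling. PSMC3 missed the threshold at -0.14 ± 0.05 log2 (adjusted p = 0.0569), but passed as lower at night with DESeq2. PSMC2 had -0.07 ± 0.05 log2. The leading transcript of PSMC1 had 0.10 ± 0.09 log2, and the direction turned with its transcripts summed, at 118 to 132 CPM at night, against 127 to 143 CPM by day.

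PSMC6 had 2 transcripts, and its result depended on which was read. The more counted transcript (ENSGALT00000037197, chromosome 5, 60799896 to 60811596, 85.7% of the gene's counts) had 177.0, 199.8 and 215.1 CPM in pineal at night, against 142.0, 174.4 and 198.6 CPM by day. In retina it had 113.6, 141.1 and 157.9 CPM at night, against 156.9, 167.1 and 175.5 CPM by day. The direction was opposite in the 2 tissues, 0.20 ± 0.08 log2 in pineal and -0.25 ± 0.08 log2 in retina (adjusted p = 0.112 and 0.218). Its curves peaked at CT15.7 in pineal and CT7.01 in retina, and the difference between the curves passed the test (adjusted p = 0.0187). With the 2 transcripts summed, the level by time was 207 to 213 CPM in pineal and 177 to 190 CPM in retina, and the difference between curves no longer passed (adjusted p = 0.593).

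Of the non-ATPase subunits of the cap, 4 of 9 were lower at night, against 6.66% of all transcripts. A curve was followed by 3 (33.3%), against 21.1% of all transcripts. With so few genes, 3 of 9 is not far from that share. PSMD1 (ENSGALT00000012419, chromosome 9, 16231315 to 16292756), the scaffold on which ubiquitin receptors dock, had the smallest p of all 34 for the curve. It had 207.2, 211.9 and 228.9 CPM at CT16 and 207.3, 215.0 and 210.6 CPM at CT20 in pineal. By day it had 241.9, 246.5 and 249.4 CPM at CT4 and 239.5, 253.5 and 255.7 CPM at CT8. Night and day did not overlap, and the difference was -0.21 ± 0.03 log2 (adjusted p = 0.000742). The curve peaked at CT5.88 with an amplitude of 0.12 ± 0.018 (adjusted p = 0.000724).

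PSMD14 (ENSGALT00000018142, chromosome 7, 22963970 to 23009354), the enzyme of the cap that cuts ubiquitin chains from the substrate, had 71.4, 74.9 and 78.0 CPM at night, against 78.5, 80.7 and 87.7 CPM by day. The ranges did not overlap, although the gap was under 1 CPM, and with its transcripts summed they did. The difference was -0.12 ± 0.03 log2 (adjusted p = 0.0266). PSMD6 (ENSGALT00000011836, chromosome 12, 13910990 to 13917322), a structural subunit of the lid, had 76.1, 79.1 and 85.9 CPM at night, against 84.0, 87.1 and 92.4 CPM by day. These overlapped, and the difference was -0.12 ± 0.03 log2 (adjusted p = 0.0239). PSMD13, another lid subunit, differed by -0.14 ± 0.04 log2 (adjusted p = 0.0314). The other lid subunits PSMD3, PSMD7, PSMD11 and PSMD12 had differences from -0.10 to -0.02 log2 and did not pass. PSMD2, the other scaffold of the base, had 0.03 ± 0.25 log2 for the leading one of its 3 transcripts, which held 51.5% of its counts. The direction turned with the 3 summed, at 149 to 167 CPM at night, against 159 to 179 CPM by day; neither value passed.

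**Figure D4:**
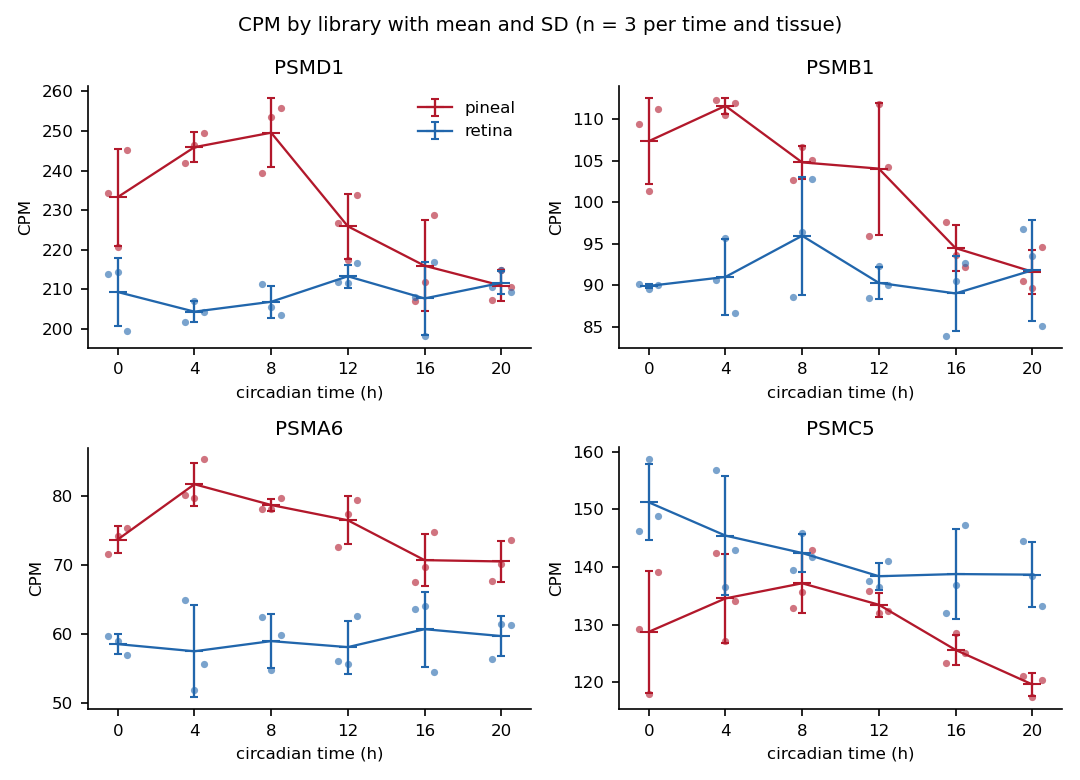
CPM of PSMD1, PSMB1, PSMA6 and PSMC5 by library (points) against circadian time, with means and SD (n = 3), pineal in red and retina in blue; the y axes do not start at 0. The pineal night libraries of PSMD1 lie at 207.2 to 228.9 CPM, under the day libraries at 239.5 to 255.7 CPM, and PSMC5 is the gene of the 4 with more CPM in retina, an order that turned on the FPKM scale.

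No activator or inhibitor passed edgeR's or DESeq2's test for night against day or for the curve in pineal. By edgeR 15.0% and 21.1% of all transcripts passed these, and with so few genes, none passing is not far from those shares. Unadjusted, PSME3 alone had a p under 0.05 for night against day and PSMF1 alone for the curve. PSME3 (ENSGALT00000039775, chromosome 27, 4698668 to 4705372), the nuclear cap that works without ubiquitin, had 184.8, 186.1 and 194.2 CPM at night, against 192.0, 195.1 and 201.4 CPM by day. Its difference was -0.05 ± 0.02 log2 (adjusted p = 0.151). PSMF1, an inhibitor of the core, had a curve amplitude of 0.05 ± 0.014 (adjusted p = 0.138). PSME4, a cap of the nucleus, differed by 0.03 ± 0.04 log2.

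Among the assembly chaperones, PSMG3 alone passed, for the curve (16.7% of the role, against 21.1% of all transcripts). PSMG3 (ENSGALT00000006688, chromosome 14, 2633892 to 2636599) helps to build the alpha ring. It had 31.6, 33.5 and 37.0 CPM at night, against 33.7, 38.8 and 41.7 CPM by day, with overlap. The curve peaked at CT3.84, the earliest of the 10, with an amplitude of 0.12 ± 0.031 (adjusted p = 0.0376), and this call ended without either set of 3 libraries. PSMG2, which acts with PSMG1 at the same step, had 16.1, 16.5 and 18.3 CPM at night, against 17.1, 20.0 and 23.4 CPM by day. Its difference of -0.24 ± 0.08 log2 missed the threshold (adjusted p = 0.0688). With transcripts summed by gene and all genes refitted, PSMG2 and PSMG3 both passed as lower at night. The base chaperones PSMD5, PSMD9 and PSMD10 had differences of -0.02 ± 0.04, -0.02 ± 0.04 and 0.01 ± 0.07 log2. DSCR2, the name here for PSMG1, had -0.04 log2 (adjusted p = 0.652).

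**Figure D5:**
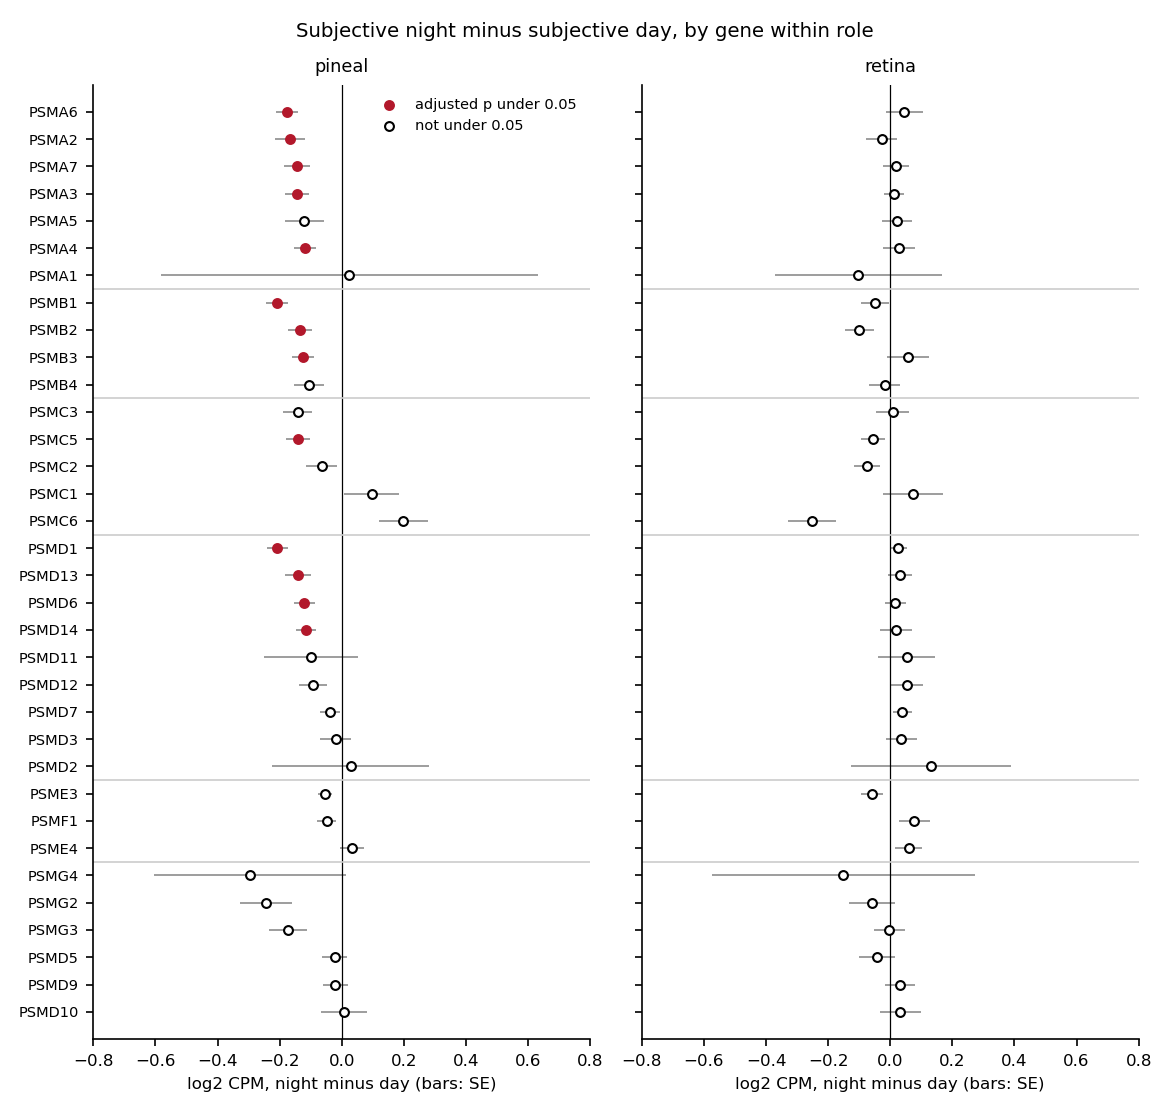
Night-minus-day difference in log2 CPM by gene, with SE, in pineal (left) and retina (right), grouped by role and ordered by the pineal value; filled red points passed an adjusted p of 0.05. The 13 filled points all lie below 0 in pineal, and no point is filled in retina.

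In retina no member passed edgeR's tests of time. For the curve, 0 of 34 genes passed edgeR's test, against 6.29% of 14956 transcripts; 2 (PSMC6 and PSME3) had an unadjusted p under 0.05, against 16.2%, and DESeq2 called PSMC6 alone (adjusted p = 0.0303). For night against day, 0 of 34 passed edgeR's test, against 0.762% of transcripts; PSMC6 alone had an unadjusted p under 0.05, against 9.56%, and was DESeq2's single call (adjusted p = 0.0437). With its transcripts summed, PSMC6 passed neither edgeR test in retina (adjusted p = 0.563 and 0.854). The median night-minus-day difference was 0.02 log2. For 0 genes did all 6 night libraries lie below, and for 0 above, all 6 day libraries, against 0.361% of transcripts each way. For 34 genes, 0 is not far from the shares of 6.29%, 0.762% and 0.361%, so these counts do not set the members apart. PSMD1, the gene with the smallest pineal p, had 198.3, 210.0 and 216.8 CPM in retina at night, against 201.8, 204.9 and 211.4 CPM by day, a difference of 0.03 ± 0.03 log2. PSMA6 had 54.4, 61.4 and 64.0 CPM at night, against 51.9, 57.7 and 64.8 CPM by day, with wide overlap. The retina gene of smallest p in the beta ring, PSMB2, had -0.10 ± 0.05 log2, and that of the chaperones, PSMD9, had a curve amplitude of 0.07 ± 0.025 (adjusted p = 0.354).

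The difference between the pineal and the retina curve was tested directly and passed for 4 of 34 genes, against 12.1% of 16831 transcripts. They were PSMD1 (adjusted p = 0.000226), PSMC6 (0.0187), PSMD6 (0.0290) and PSMA6 (0.0441). PSMD1 and PSMC6 passed without any single library, whereas PSMA6 was lost in 22 and PSMD6 in 21 of 36 such fits. The count was 2 without any 1 of pineal CT4 replicates 1, 2 and 3 and CT16 replicate 1, or retina CT0 replicates 1, 2 and 3, CT4 replicate 3, CT16 replicate 2 and CT20 replicate 2. For the other 30 genes a difference of curve between the tissues was not shown.

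Dusk and dawn, the transitions that night against day leaves out, gave no call. In pineal 0 of 34 genes passed edgeR's test for CT12 against CT0, against 11.9% of transcripts; 2 (PSMA3 and PSMD14) had an unadjusted p under 0.05, against 22.6%, and DESeq2 called 0. PSMA3 had 133.7, 132.7 and 142.2 CPM at CT12 and 118.7, 123.9 and 131.3 CPM at CT0, a difference of 0.13 ± 0.05 log2 (adjusted p = 0.165). PSMD14 had 74.4, 75.6 and 72.8 CPM at CT12 and 78.4, 80.9 and 79.96 CPM at CT0, a difference of -0.10 ± 0.05 log2 (adjusted p = 0.201). In retina 0 passed edgeR's test, against 4.24%, and for 34 genes 0 is not far from that share. PSMC5 alone had an unadjusted p under 0.05, against 14.4%, and DESeq2 called 0.

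Between tissues, 27 of 34 genes differed, against 82.7% of transcripts, with 16 higher in pineal and 11 lower (43.2% and 39.5% of all). The median difference was 0.02 log2 for the 34 genes and 0.04 log2 for all transcripts. On the deposited FPKM values, tested with limma, 22 were higher and 4 lower; there the median of all transcripts was 0.23 log2, and PSMA4, PSMC5 and PSMG3, lower in pineal by CPM, were above 0. No gene differed by 1 log2 or more.

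PSMD9, PSME3, PSMD5 and PSMA6 stood highest in pineal over retina, and for these 4 genes every pineal library lay above every retina library, against 21.7% of transcripts. PSME3 had 184.8, 190.2 and 201.4 CPM in pineal, against 123.7, 132.7 and 150.8 CPM in retina (lowest, median and highest of 18), a difference of 0.51 ± 0.02 log2 (adjusted p = 4.67e-21). PSMD9 (ENSGALT00000006943, chromosome 15, 5740925 to 5743649), a chaperone of the ATPase ring, had 70.6, 74.8 and 81.2 CPM in pineal, against 46.9, 52.1 and 59.5 CPM in retina. Its difference was 0.52 ± 0.03 log2 (adjusted p = 3.22e-17). PSMD5, a chaperone of the same ring, averaged 95.5 ± 4.7 CPM in pineal and 67.9 ± 4.3 CPM in retina (SD, n = 18 each). PSMA6 averaged 75.3 ± 4.9 CPM in pineal and 58.9 ± 3.8 CPM in retina. A lesser transcript of PSME3 (ENSGALT00000004634, 1.37% of the gene's counts) had a mean count of 31.1 in pineal and 1.61 in retina, a difference of 4.07 log2 (adjusted p = 1.95e-15).

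PSMG2, PSMD11, PSMG4 and PSME4 stood lowest in pineal against retina. PSME4 had 134.4, 143.4 and 154.6 CPM in pineal, against 164.4, 172.8 and 192.5 CPM in retina, and was the single gene whose pineal libraries all lay below all retina libraries, against 20.3% of transcripts. Its difference was -0.29 ± 0.02 log2 (adjusted p = 1.54e-12). On FPKM, 14 of the 18 pineal libraries of PSME4 lay below every retina library. With transcripts summed by gene, PSME4 and PSMC3 both separated in full. The PSMC3 sum was 106.7 to 120.4 CPM in pineal, against 121.0 to 143.8 CPM in retina. The 2 nuclear activators PSME3 and PSME4 stood in opposite directions. PSMG2 averaged 18.8 ± 2.3 CPM in pineal and 27.2 ± 2.3 CPM in retina, a difference of -0.54 ± 0.05 log2 (adjusted p = 1.38e-11). PSMD11, a lid subunit, averaged 6.1 ± 1.1 CPM in pineal and 8.7 ± 0.9 CPM in retina (adjusted p = 1.22e-07). It was low in CPM only. Per transcript length PSMD11 averaged 75.7 ± 14.3 FPKM in pineal and 95.1 ± 10.3 FPKM in retina, ranks 18 and 11 of 34. PSMG4, the partner of PSMG3, averaged near 1 CPM and its call (adjusted p = 0.0318) was lost without any 1 of pineal CT8 replicate 3 and CT12 replicate 2, or retina CT0 replicate 3, CT4 replicate 3 and CT12 replicate 1. By role and CPM, the beta ring had 3 genes higher in pineal and 0 lower, and the alpha ring 3 and 1. The base ATPases had 2 and 2 and the non-ATPase subunits 5 and 3. The activators and inhibitor had 1 and 1, and the chaperones 2 and 4. Of all transcripts, 43.2% were higher and 39.5% lower, and a difference between roles was not tested. These counts depend on the scale. On log2 FPKM, limma also called PSMA3, PSMA5, PSMB4, PSMC5, PSMF1 and PSMG3 higher, and only PSMC3, PSMD11, PSME4 and PSMG2 lower.

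Compared per transcript length, with each gene read from its most counted transcript, some alpha subunits were the most abundant members. PSMA1 and PSMA6 ranked 16 and 17 of 34 in pineal. The rank of PSMA1 leaves out its other transcript, which averaged 47.3 FPKM in pineal, beside 89.2 FPKM for the leading one. For PSMA2 these were 18.2 and 138.1 FPKM. Ranks with transcripts summed by gene were not computed. In pineal PSMA3 averaged 151.8 ± 11.5 FPKM, PSMA4 144.5 ± 9.1 FPKM and PSMA7 141.4 ± 10.3 FPKM (SD, n = 18), levels whose SD ranges overlapped. In retina PSMA4 averaged 142.3 ± 8.5 FPKM, PSMA3 134.6 ± 6.4 FPKM and PSMD7, a lid subunit, 123.6 ± 5.3 FPKM. The lowest were accessory proteins: PSMG4 at 7.23 ± 2.42 FPKM, PSME4 at 27.1 ± 0.9 FPKM and PSMG2 at 28.8 ± 3.7 FPKM in pineal, and PSMG4, PSMD5 and PSME4 at 9.02 ± 3.93, 21.8 ± 1.3 and 29.7 ± 1.3 FPKM in retina.

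Genes were read from 3 further lists, of proteasome partners, of ubiquitin supply and delivery, and of the TRiC chaperonin. Of 15 partners outside the PSM names, 4 followed a curve in pineal (26.7%, against 21.1% of all transcripts) and 2 were lower at night (against 6.66% of all transcripts) with 0 higher: DDI2, the protease that activates the proteasome transcription factor NFE2L1, at -0.41 ± 0.10 log2 (adjusted p = 0.0105) and UCHL5, a deubiquitinase of the cap, at -0.15 ± 0.04 log2 (adjusted p = 0.0149). Of 12 genes of ubiquitin supply and delivery, 4 followed a curve (33.3%) and 4 were lower at night with 0 higher (among them VCP, its cofactor UFD1L and UBB, a polyubiquitin gene whose repeated units can share reads with similar genes). Of 6 genes of TRiC, the chaperonin that folds actin and tubulin, 4 followed a curve (66.7%) and 4 were lower at night with 0 higher (CCT2, CCT4, CCT8 and TCP1). Under total-count scaling, 2 of each list passed as lower and 0 as higher. DESeq2 called 0 higher in the 3 lists, and UBA6, an enzyme that activates ubiquitin, was the gene above 0 with an unadjusted p under 0.05.

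VCP (chromosome Z, 7931929 to 7954919), the ATPase that pulls ubiquitinated proteins out of complexes, had 259.8, 272.1 and 296.1 CPM in pineal at night, against 306.2, 329.8 and 345.3 CPM by day. The ranges did not overlap, and the difference was -0.24 ± 0.04 log2 (adjusted p = 0.000329). CCT2 (chromosome 1, 37378125 to 37390599) had 208.9, 219.1 and 224.0 CPM at night, against 238.7, 258.2 and 266.6 CPM by day, again without overlap, a difference of -0.22 ± 0.03 log2 (adjusted p = 0.000260). In retina edgeR called 0 genes of the ubiquitin and TRiC lists for the curve, against 6.29% of all transcripts. With so few genes, 0 is not far from that share. UBB had an unadjusted p under 0.05, and DESeq2 called 1.

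ZFAND5 (chromosome Z, 35431238 to 35446144), a zinc finger protein that stimulates the proteasome in mammals, kept another time. In pineal it averaged 173.5 ± 8.45 CPM at CT0, 130.7 ± 6.25 at CT4, 123.5 ± 5.87 at CT8, 115 ± 1.15 at CT12, 118.3 ± 5.74 at CT16 and 147.7 ± 8.04 at CT20 (SD, n = 3). At CT12 it had 115.8, 115.4 and 113.7 CPM, against 173.8, 164.9 and 181.8 CPM at CT0, a dusk-minus-dawn difference of -0.59 ± 0.06 log2 (adjusted p = 2.59e-06). In retina the same difference was -0.33 log2 (adjusted p = 0.00274), with 212.5, 216.4 and 199.3 CPM at CT12, against 258.1, 265.4 and 265.1 CPM at CT0. Its curves peaked at CT23.5 in pineal and CT0.44 in retina, near dawn in both. UBE3C, a ubiquitin ligase bound to the proteasome (chromosome 2, 8533448 to 8597205), followed a curve in retina, with a peak at CT15.6 and an amplitude of 0.16 (adjusted p = 0.0310). ZFAND5 and UBE3C were the 2 of 15 partners that followed a curve in retina by edgeR's test, against 6.29% of all transcripts. UBE3C lost the call with transcripts summed by gene (adjusted p = 0.321), with limma on FPKM (0.0681 to 0.0919) and with time as 6 levels (0.287), where ZFAND5 passed; DESeq2 called 3 partners.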

How the data were processed

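The deposited estimated counts per transcript of 36 libraries, which the authors made from Illumina reads, were analysed; Trimmomatic, TopHat and Cufflinks are listed, without versions, in the submitters' processing notes. The deposited FPKM values, the authors' counts per length and depth, served for levels between genes and for an alternative test. The genome build and strand setting are not given in the sources used here, and a genome was not used. Counts were rounded to whole numbers, filtered with filterByExpr by time (by tissue and time across tissues) and fitted with edgeR 4.0.16 (TMM, quasi-likelihood) in R 4.3.3. Each tissue's fit held its 18 libraries; comparisons across tissues held all 36. The curve was the cosine and sine of 24 h. Its amplitude, peak and SE are least-squares values on log2 CPM with a prior count of 2. The SE of a night, dusk or tissue difference was derived from that difference and the F statistic of its quasi-likelihood test. DESeq2 1.42.0 and limma 3.58.1 (log2 FPKM plus 0.1, transcripts of mean FPKM above 0.5) were alternatives. The procedure was also run on simulated counts, drawn with the same fixed dispersion for every transcript and without split transcripts or outlying libraries. That run does not show how the tests behave where the data have these.

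Members followed a name rule; genes given with values were those of smallest p per role, largest tissue difference, highest or lowest FPKM, and smallest p among the pathway lists. Members outside that rule (PSMA1, PSMA2, PSMA5, PSMB4, PSMC1 to PSMC3, PSMD2, PSMD3, PSMD10, PSMD12, PSMD13 and the pathway genes other than ZFAND5, CCT2, VCP and UBE3C), CPSMB7 and DSCR2 were named after their values were seen. Members, lists and tests were chosen with earlier results of these data known. Libraries low in TTR (over 10 times below the pineal median) or high in GAD67 (over 3 times it) were left out in alternatives. 1 gene of the pathway lists is counted but not reported by name here.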

Additional observations from a re-analysis of the deposited data

Results flagged for a closer look

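The fitted 24 h curve of 4 genes differed between pineal and retina by edgeR's test of the difference itself, with adjusted p of 0.000226 for PSMD1, 0.0187 for PSMC6, 0.0290 for PSMD6 and 0.0441 for PSMA6. Of all transcripts 12.1% passed the same test, so 4 of 34 is close to that share. PSMD1 peaked at CT5.88 in pineal with an amplitude of 0.12 ± 0.018 log2, and its amplitude in retina was 0.02 ± 0.013 log2. PSMA6 and PSMD6 had pineal amplitudes of 0.10 ± 0.017 and 0.07 ± 0.020 log2, and retina amplitudes of 0.03 ± 0.031 and 0.04 ± 0.015 log2. PSMC6 had amplitudes of 0.14 ± 0.049 log2 in pineal and 0.16 ± 0.047 log2 in retina, with peaks at CT15.7 and CT7.01; with its transcripts summed the difference did not pass (adjusted p = 0.593). Groups of 3 libraries were too small for a search of single outlying libraries.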

How the results depend on the processing

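Among the 34 genes, 10 followed a curve in pineal as reported; the count was 4 at an adjusted p of 0.01, 5 with time as 6 levels, 6 with total-count scaling, without the GAD67-high or without the TTR-low libraries, and 6 to 11 when single libraries were left out. The 13 lower at night became 8 without the TTR-low libraries, 8 with CT12 added to night and CT0 to day (7 lower, and PSMC6 higher), 4 with total-count scaling, and 4 to 14 without single libraries. DESeq2 gave 1 call in retina for the curve and 1 for night against day, in place of 0. The 4 differences of curve became 1 with time as 6 levels and 2 to 6 without single libraries. Between tissues the count was 0 at a difference of at least 1 log2 and 25 to 30 without single libraries. Dusk against dawn in both tissues, and the retina tests, stayed at 0 without any single library. Total-count scaling and the left-out GAD67-high libraries were chosen after seeing the data. The cause of these changes was not tested.

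With transcripts summed by gene, directions turned for pineal night against day, to -0.18 log2 for PSMA1, -0.090 for PSMC1 and -0.087 for PSMD2 (adjusted p = 0.000279, 0.0671 and 0.172), and for pineal against retina, to 0.14 log2 for PSMA1. For pineal against retina they also turned on log2 FPKM, to 0.021 for PSMA4, 0.059 for PSMC5, 0.060 for PSMC1, 0.16 for PSMD2, 0.12 for PSMG3, 0.14 for PSMB4, 0.15 for PSMF1 and 0.17 for PSMA3, with the same values without the filter on low FPKM and within 0.01 of them with a pseudocount of 1. Other turns (PSMA1, PSMA3, PSMD2, PSMD10 and PSMF1), single libraries left out aside, had values that did not pass. On the log2 FPKM scale the median tissue difference of all transcripts was 0.23 (0.19 without the filter, 0.20 with a pseudocount of 1), against 0.04 with TMM.

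The replicate numbers did not pair the libraries: deviations of libraries with 1 number correlated between -0.07 and 0.26 over 45 pairs in pineal and between -0.05 and 0.05 in retina. With the replicate block, 9 genes followed a curve in pineal, 13 were lower at night, 4 differed in curve and 25 differed between tissues, and retina gave 0. The SE of the pineal night-minus-day difference was widest for PSMA1 (0.61 log2), PSMG4 (0.31) and PSMD2 (0.25).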
